A study of Mus musculus with 2 samples.

Results

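The microRNA genes Mir338, Mir3065, Mir219a-1, Mir219a-2, Mir219b and Mir219c were examined in the left cerebral cortex of newborn mice. They were chosen by gene symbol, with a rule that uses no measured value, though earlier results of these data were known. All 6 symbols were present among the 2202 microRNA genes counted. The tissue came from female B6CASTF1/J mice, whose parents were of the C57BL/6 and castaneus (CAST) strains, 4 days after birth. There was 1 group of 2 libraries. The labels number a separate animal for each but give a single donor record, so n = 2 rests on the labels. They record neither a treatment nor an induced allele. Small RNA shorter than 30 bases was sequenced. With a single group no condition could be compared, so the results are levels, the spread between the animals and ratios within each library.

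Oligodendrocytes wrap axons in myelin and arise from dividing precursor cells that carry the growth factor receptor Pdgfra. miR-219 and miR-338 are known to accumulate as precursors stop dividing and mature. They repress mRNAs that hold cells in the precursor state, among them Sox6 and Hes5, and miR-219 also represses Pdgfra itself. In mouse cortex most myelin is laid down later in postnatal life. A microRNA is cut from a hairpin that yields a 5p and a 3p arm, and bases 2 to 8 of the mature strand, the seed, pair with target mRNAs.

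The mature sequences listed for the 6 genes show how their products differ and overlap. They are from RefSeq on build GRCm38.p6, 5′ to 3′, with the seed in capitals.
miR-338-3p: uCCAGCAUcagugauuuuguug
miR-338-5p: aACAAUAUccuggugcugagug
miR-3065-5p: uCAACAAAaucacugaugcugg
miR-219a-5p: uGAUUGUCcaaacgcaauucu
miR-219a-1-3p: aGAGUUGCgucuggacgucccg
miR-219b-5p: aGAUGUCCagccacaauucucg
miR-219b-3p: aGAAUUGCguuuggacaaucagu
miR-219c-5p: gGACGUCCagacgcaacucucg
miR-219c-3p: cGAGAAUUgcguuuggacaauc
miR-219a-2-3p and miR-3065-3p are absent from the sequences used here, so they are not printed and enter none of the counts below. All 6 hairpins matched RefSeq. The 10 mature entries of these genes gave 9 distinct sequences, because miR-219a-5p is listed for both Mir219a-1 and Mir219a-2. The 9 sequences had 9 different seeds. None of these seeds occurred in any other of the 1679 mature mouse microRNAs in the RefSeq table, so by seed each sequence formed a family of its own there.

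The 6 genes form 3 loci, and at each locus a hairpin on the plus strand lies within the span of one on the minus strand (positions on mm10). Mir338 (ENSMUSG00000065600.1) is on chromosome 11, minus strand, 120014765 to 120014862. It sits in an intron of the kinase gene Aatk, which is transcribed in the same direction. Mir3065 (ENSMUSG00000105524.1) lies across it on the plus strand from 120014767 to 120014853, against the direction of Aatk. Mir219a-2 (ENSMUSG00000065485.1) is on chromosome 2, minus strand, 29845631 to 29845727, outside annotated protein-coding genes and 628 bases beyond the end of Urm1. Mir219b (ENSMUSG00000105010.1) lies opposite it from 29845647 to 29845711.

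Mir219a-1 (ENSMUSG00000065555.1) is on chromosome 17, minus strand, 34024983 to 34025092, between Ring1 and H2-Ke6. It overlaps an exon of the noncoding gene Gm26940 on the same strand. Mir219c (ENSMUSG00000105964.1) lies opposite it from 34025012 to 34025071. The products of the 2 strands are complementary where they overlap. miR-338-3p and miR-3065-5p overlap over 21 of 22 bases each, and miR-219a-5p is complementary over all of its 21 bases to miR-219b-3p and over 20 of them to miR-219c-3p. miR-219a-1-3p and miR-219c-5p overlap over 20 bases. Despite this overlap the seeds differ, since each strand is read from its own 5′ end.

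**Figure D1:**
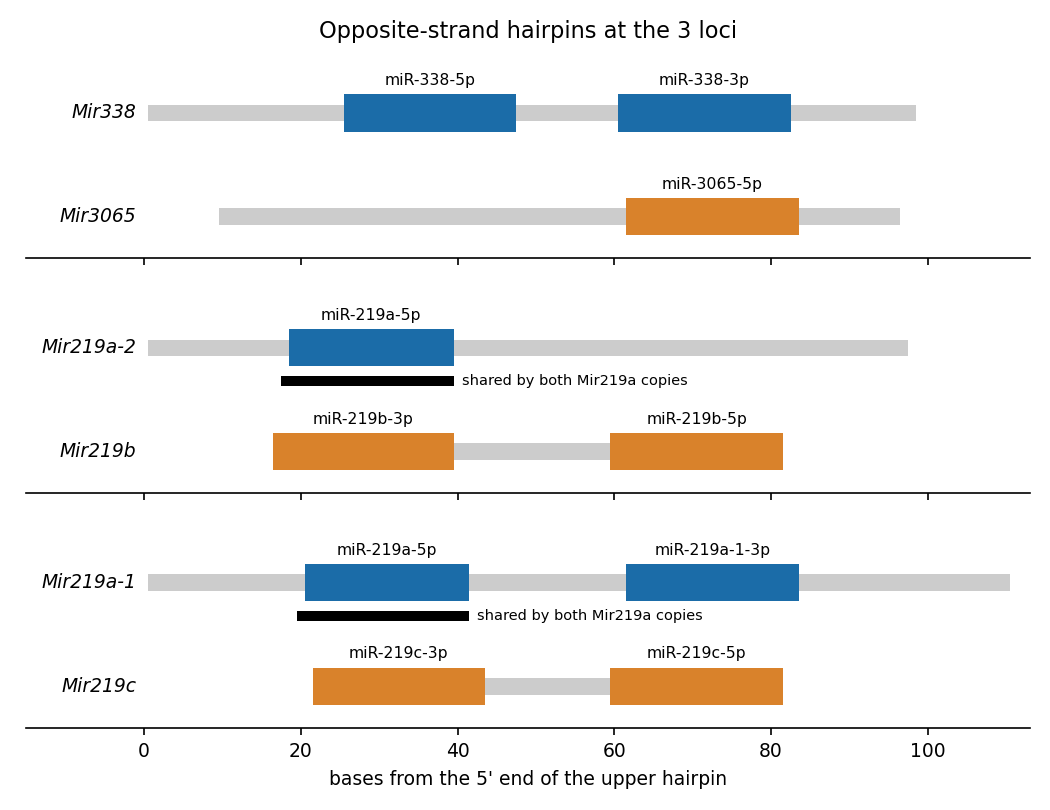
Position of the hairpins (grey) and mature strands (blue, minus strand; orange, plus strand) at the 3 loci, in bases from the 5′ end of the minus-strand hairpin. Black bars mark the 22 bases that both Mir219a copies share, which cover miR-219a-5p.

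The hairpins of the Mir219a copies show which reads can be told apart. The stretch that both copies share is in capitals.
Mir219a-1: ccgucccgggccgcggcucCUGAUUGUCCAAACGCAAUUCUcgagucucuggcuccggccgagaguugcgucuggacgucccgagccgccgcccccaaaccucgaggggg
Mir219a-2: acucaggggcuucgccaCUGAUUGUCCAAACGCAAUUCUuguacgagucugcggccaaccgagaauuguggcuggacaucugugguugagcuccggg
The shared stretch is 22 bases long and holds all of miR-219a-5p plus the base before it. The next longest stretch in common is 7 bases. A read that lies wholly inside the shared stretch matches both loci equally. Reads that mapped to several places were kept in a separate total and given to no gene. They made up 45.8% of all reads in replicate 1 and 41.0% in replicate 2, and how many of them were miR-219a-5p cannot be read from the counts. A read of exactly the bases listed for miR-219a-5p matches both copies and was thus given to neither gene. The counts of the Mir219a genes are therefore not levels of miR-219a-5p, and rest on reads that reach outside the shared stretch. Mir338 and Mir3065 shared no window of 18 bases with any microRNA gene at another locus.

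The libraries held 3555469 reads on the annotated strand of microRNA genes in replicate 1 and 2761003 in replicate 2. Levels are given as CPM, counts per 1000000 of these reads. Absence of a read allows for 3 counts, which equal 0.844 CPM in replicate 1 and 1.09 in replicate 2. Intervals are at 95%. They cover only the error of counting, since reads that share a template through amplification are not separate molecules. CPM were not divided by hairpin length, since a mature strand gives 1 read whatever its hairpin, and differences in ligation between sequences were not measured. In bulk tissue, fewer cells of a type and less RNA per cell cannot be told apart.

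The minus-strand genes carried nearly all reads of the 3 loci. By reads given to a single gene, Mir338, the host-intron member, was the highest, followed by Mir219a-2 and Mir219a-1. Mir338, Mir219a-2 and Mir219a-1 reached 2 CPM in both libraries and were called detected, 3 of 6 members, against 20.4% of all 2202 microRNA genes. The members together had 3247 reads in replicate 1, a share of 0.0913% (Wilson interval 0.0882 to 0.0945), and 1694 in replicate 2, a share of 0.0614% (0.0585 to 0.0643). The mean was 0.0763% ± 0.0212 (SD, n = 2).

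Mir338 had 2614 counts in replicate 1 (exact Poisson interval 2515 to 2716) and 1211 in replicate 2 (1144 to 1281). These counts equal 735 and 439 CPM, with a mean of 587 ± 210 CPM (SD, n = 2). It ranked 123 in replicate 1 and 140 in replicate 2 among all microRNA genes. All ranks given here leave out reads that mapped to several places, so they are not ranks of mature microRNAs. The library with the higher level was replicate 1, and the counting intervals on the CPM scale (707 to 764 and 414 to 464) did not overlap.

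Mir219a-2 had 470 counts in replicate 1 (interval 428 to 514) and 280 in replicate 2 (248 to 315), which equal 132 and 101 CPM. Its mean was 117 ± 21.8 CPM (SD, n = 2), and it ranked 212 and 215. Replicate 1 was again the higher library, and the CPM intervals (121 to 145 and 89.9 to 114) did not overlap. Mir219a-1, the copy on chromosome 17, went the other way. It had 163 counts in replicate 1 (139 to 190) and 202 in replicate 2 (175 to 232), which equal 45.8 and 73.2 CPM, and it ranked 255 and 233. Its mean was 59.5 ± 19.3 CPM (SD, n = 2), and the CPM intervals (39.1 to 53.4 and 63.4 to 84.0) did not overlap.

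The order Mir338, Mir219a-2, Mir219a-1 held in both libraries. The lowest Mir338 level, 439 CPM, lay above the highest Mir219a-2 level, 132 CPM. The lowest Mir219a-2 level, 101 CPM, lay above the highest Mir219a-1 level, 73.2 CPM. Neighbours in this order thus did not overlap over the 2 libraries, which are too few for a test. Reads wholly inside the stretch that the Mir219a copies share are left out, so the order need not hold for the mature strands.

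**Figure D2:**
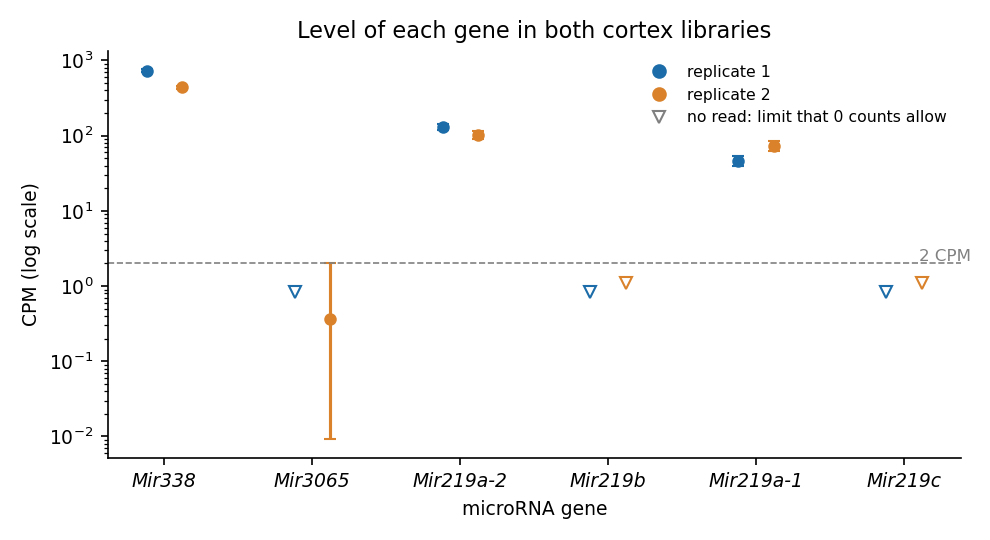
CPM on a log axis for each gene in replicate 1 (blue) and replicate 2 (orange), with exact Poisson intervals, and open triangles at the level that 0 counts allow. Mir338, Mir219a-2 and Mir219a-1 lie above the dashed line at 2 CPM in both libraries, and the genes on the opposite strand lie below it.

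On the plus strand reads were almost absent. Mir3065 had 0 counts in replicate 1 and 1 in replicate 2, or 0.362 CPM (interval 0.00917 to 2.02). Mir219b and Mir219c had 0 counts in both libraries. Within replicate 1 Mir338 was at least 871-fold higher than Mir3065, against the limit of 3 counts per library, and the exact binomial lower bound of the ratio was 708. In replicate 2 the ratio was 1211, with an exact binomial interval of 217 to 47871.

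The single Mir3065 read made up 0.0825% of the reads of its locus in replicate 2 (Clopper-Pearson interval 0.00209 to 0.459). The 2138 microRNA genes without a partner on the other strand had 0.00440% of their reads on the opposite strand in replicate 1 and 0.00503% in replicate 2. The lower bound for Mir3065 lies below these shares, so 1 read gave no level of Mir3065 above the opposite-strand background of these libraries.

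Because the hairpins overlap, a count without strand loses these genes. In the column for either strand, Mir338, Mir3065, Mir219a-2, Mir219b and Mir219c had 0 counts in both libraries. Mir219a-1 had 0 in replicate 1 and 2 in replicate 2, where 202 reads were counted on its strand and 200 of them also lay opposite Mir219c. Mir219a-1 extends past Mir219c at both ends. At the 3 loci 3247 reads of replicate 1 and 1692 of replicate 2 were lost in this way, 1.52% and 0.962% of the reads called ambiguous without strand.

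**Figure D3:**
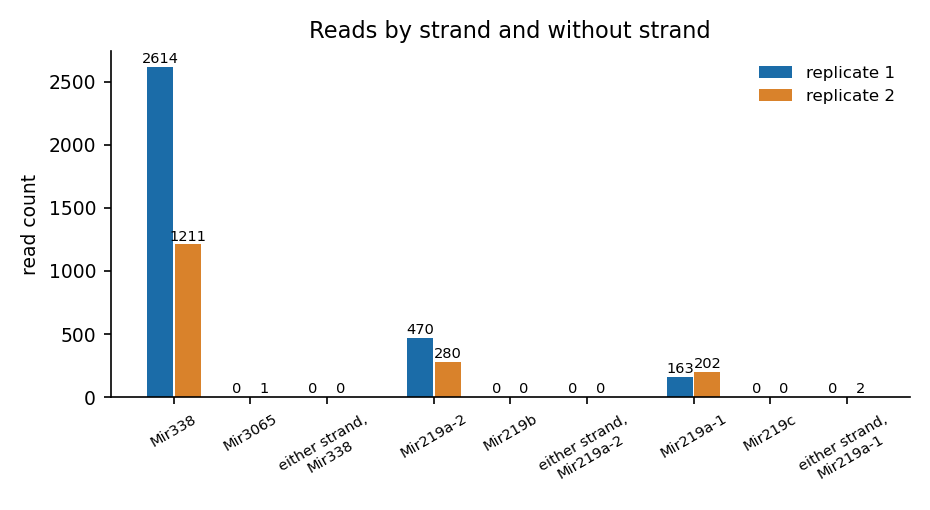
Read counts at the 3 loci in replicate 1 (blue) and replicate 2 (orange) for the minus-strand gene, the plus-strand gene and the minus-strand gene in the column for either strand. The 2614 and 1211 reads of Mir338 become 0 and 0 without strand.

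Other microRNA genes share this layout. The annotation holds 32 pairs of microRNA genes that overlap on opposite strands, of which 26 had at least 100 counts over both libraries. Each of the 26 lost at least 99% of its reads without strand. In 20 of them the lower gene had no read, and in 3 it held over 1% of the reads of the pair. The pair of Mir338 and Mir3065 ranked 10 by reads, that of Mir219a-2 and Mir219b 18, and that of Mir219a-1 and Mir219c 22. With both libraries summed, the most even pair was Mir24-1 and Mir3074-1, named here after its values were seen. Mir3074-1 held 42.4% of its reads, against 0.0261% for Mir3065 at its own locus. This pair turned around between the libraries. Mir3074-1 had 28 reads against 116 for Mir24-1 in replicate 1, and 86 against 39 in replicate 2. These counts leave out reads that mapped to several places. Whether this pair shares stretches with other loci was not searched, so its shares need not hold for the full output of either gene.

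Between the animals the members did not move together by reads given to a single gene. Log2 ratios are of replicate 2 over replicate 1 after scaling with TMM factors (trimmed mean of M-values), and each count was raised by 0.5. Mir338 had a ratio of -0.71 (counting interval -0.81 to -0.61), a level 1.63-fold higher in replicate 1. Mir219a-2 had -0.34 (-0.56 to -0.13), 1.27-fold higher in replicate 1. Mir219a-1 had 0.71 (0.41 to 1.02), 1.64-fold higher in replicate 2. The ratios of the Mir219a copies rest on reads that reach outside their shared stretch. Whether the part of reads that do so differed between the libraries was not measured.

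Over both libraries 3 members reached 10 counts. Of these, 2 had intervals wholly below 0 and 1 wholly above. Among all 525 genes that reached it, 28.6% lay wholly below 0 and 26.7% wholly above, so differences beyond counting error were common in these libraries. None of the 3 members differed 2-fold or more. A 2-fold difference or more was found for 11.0% of the 308 genes with at least 100 counts in the direction of replicate 1, and for 5.19% toward replicate 2. The median size of the log2 ratio over these 308 genes was 0.34. A log2 ratio farther from 0 than that of Mir338 was found for 22.7% of them, than that of Mir219a-1 for 22.4%, and than that of Mir219a-2 for 49.7%. With 1 library per animal no test of these differences was possible, and the animal cannot be told apart from its dissection or its library preparation.

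**Figure D4:**
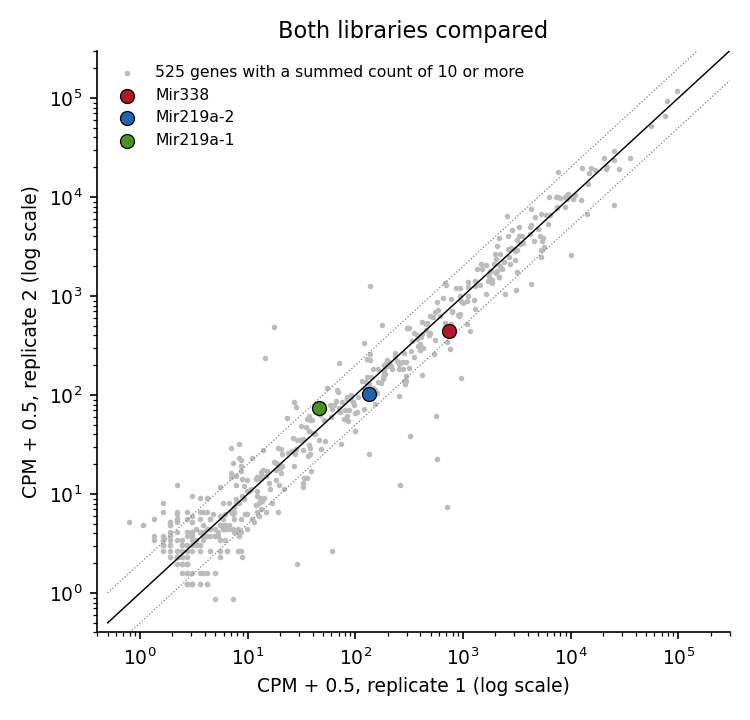
CPM + 0.5 in replicate 2 against replicate 1, both on log axes, for 525 genes (grey) and the detected members (coloured), with lines at equality (solid) and at 2-fold (dotted). Mir338 and Mir219a-2 lie below the solid line and Mir219a-1 above it, all within the dotted lines.

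Ratios within a library need no scaling between libraries. The ratio of Mir219a-2 to Mir219a-1 was 2.88 in replicate 1 (exact binomial interval 2.41 to 3.47) and 1.39 in replicate 2 (1.15 to 1.67). By reads given to a single locus, the chromosome 2 copy was thus the higher in both animals, and the intervals of the ratio did not overlap. Reads wholly inside the shared stretch were given to neither copy, so the ratio cannot rank the full output of the copies. The ratio of Mir338 to Mir219a-2 was 5.56 (5.04 to 6.15) and 4.33 (3.79 to 4.94). The ratio of Mir338 to Mir219a-1 spread most, with 16.04 (13.7 to 18.9) and 5.995 (5.16 to 6.99). As shares of the reads of the 6 genes, Mir338 made up 80.5% and 71.5%, Mir219a-2 14.5% and 16.5%, and Mir219a-1 5.02% and 11.9%. Reads of the shared stretch, whose number is not known, would raise the Mir219a counts in these ratios and shares, and not those of Mir338.

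**Figure D5:**
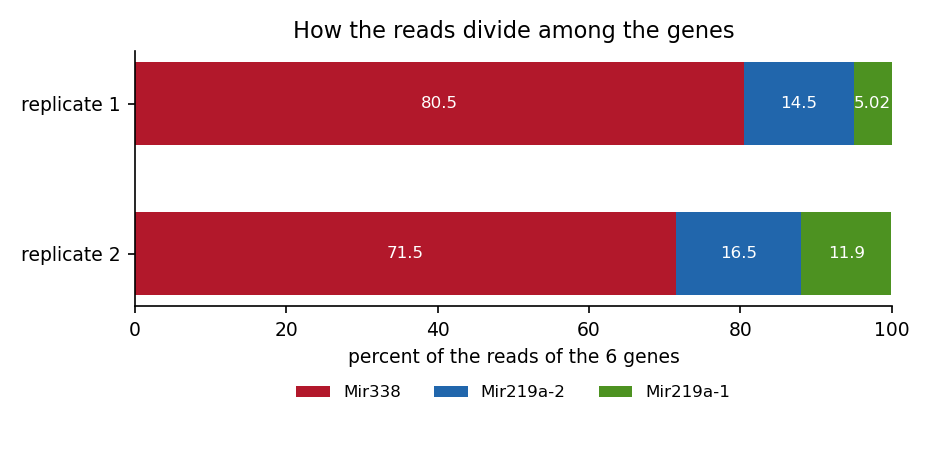
Percent of the reads of the 6 genes that Mir338 (red), Mir219a-2 (blue) and Mir219a-1 (green) made up in each library. Mir338 led in both, and the share of Mir219a-1 was 5.02% in replicate 1 and 11.9% in replicate 2. Reads that mapped to several places are left out.

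The genes nearest to the members in level were found by distance over log2(CPM + 1) in the 2 libraries. For Mir338 they were Mir31 (754 and 484 CPM in replicates 1 and 2) and Mir665 (773 and 518 CPM). For Mir219a-2 they were Mir145a (140 and 97.8 CPM) and Mirlet7f-1 (123 and 116 CPM). For Mir219a-1 they were Mir3093 (46.7 and 62.3 CPM) and Mir217 (57.1 and 78.2 CPM). Such nearness over 2 libraries is a description of level only.

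Other microRNAs tied to oligodendrocyte lineage cells in the literature spanned a wide range of levels. All 8 of this list were detected, with mean levels of 69.0 to 10911 CPM and a median of 1992 CPM, against 89.2 CPM over the 450 detected microRNA genes. The detected members had means of 587, 117 and 59.5 CPM. By mean level, Mir32 (69.0 CPM), Mir27a (82.3 CPM) and Mir145a (119 CPM) lay below Mir338, and the other 5 lay above it. In replicate 1 alone, Mir138-2 (688 CPM) lay below Mir338 (735 CPM). Most are expressed in many cell types. Mir138-1 and Mir138-2, copies of a microRNA that rises with miR-219 and miR-338 as precursors mature, had 2155 and 688 CPM in replicate 1 and 3832 and 1292 CPM in replicate 2. Both were thus higher in replicate 2, as was Mir219a-1, while Mir338 and Mir219a-2 were higher in replicate 1. Reads that mapped to several places were given to neither Mir138 copy, so these counts need not follow the level of the mature strand. Mir125a and Mir23b were the highest of the list, with means of 10911 ± 2169 and 7582 ± 267 CPM (SD, n = 2). Of the 8, 3 had counting intervals wholly below 0, 4 wholly above, and the median log2 ratio was 0.02, against 0.01 over all 525 genes.

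Markers of other cell types also differed between the libraries. Of all 525 genes with at least 10 counts, 28.6% had intervals wholly below 0 and 26.7% wholly above. Epithelial microRNAs, 5 of 5 with intervals below 0, had sums of 1930 CPM (replicate 1) and 93.8 CPM (replicate 2), led by Mir200b and Mir200c. Choroid plexus and ciliated cell microRNAs, 4 of 5 below 0, summed to 5222 and 2793 CPM, led by Mir449a and Mir204. Neuronal microRNAs, 3 of 6 below 0, summed to 34082 and 23524 CPM. Mir137, the highest of them, had 14397 and 13672 CPM, and the difference lay mostly in the Mir128 copies, with 14073 and 6719 CPM for Mir128-1 and 5607 and 3127 CPM for Mir128-2. Of the neuronal list 3 of 6 were detected, and the Mir124a copies had means of only 1.63 to 2.51 CPM. Reads that mapped to several places were given to no gene, so all these sums leave them out. The summed levels of these 3 lists were higher in the library where Mir338 and Mir219a-2 were higher.

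In replicate 2, where Mir219a-1 was higher, red cell microRNAs (2 of 3 above 0) summed to 550 CPM against 60.2 CPM in replicate 1. Nearly all of this was Mir451a, with 491 CPM against 16.9 CPM, while Mir486 had 30.4 CPM against 36.8 CPM. Endothelial Mir126a had 19723 CPM against 12842 CPM. Microglia and leukocyte microRNAs, 3 of 5 above 0 and 2 below, had sums of 1185 CPM (replicate 2) and 1104 CPM (replicate 1). Mir146, the highest, had 714 CPM against 591 CPM, while Mir150 went the other way with 326 CPM against 397 CPM. No marker of these lists was without a read in both libraries. The part of these cell types in the differences of Mir338, Mir219a-2 and Mir219a-1 was not tested.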

How the data were processed

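Each library has a deposited table of raw counts (whole reads per microRNA gene), with no pooling. Per the deposited notes, the authors used mm10 and GENCODE M21. The aligner, counter, trimming and filters are not given in the sources used here. The tables have no column names. Their columns were read as counts on either strand, the annotated strand (used here) and the opposite strand, from the layout and the values.

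All 2202 gene IDs matched annotation M21. Rows of totals did not enter library sizes. The labels give separately numbered animals with a single donor record, so n = 2 rests on the labels. CPM were computed here. TMM factors came from edgeR 4.0.16 over genes with at least 10 counts in all. The factors and the ratio formula were tested on simulated counts, but the step that computed the reported ratios and intervals was not. DESeq2 1.42.0 gave alternative size factors. Intervals came from scipy 1.17.1. Shared stretches were searched in the M21 transcripts of all microRNA genes, in either direction, not in the genome.

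The members and marker lists were chosen with earlier results of these data known. By rule, named genes were all members, the 2 genes nearest in level to each detected member, overlapping microRNA genes and the 2 highest of each list. Outside this rule, the Mir138 and Mir124a copies, Mir32, Mir27a and the lower Mir128 copy were also named. One listed symbol, Mir486b, matched no gene. Whether castaneus variants changed the mapping to mm10, a C57BL/6J genome, was not tested.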

Additional observations from a re-analysis of the deposited data

How the results depend on the processing

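Without strand, the mean level was 0 CPM for Mir338, 0 for Mir219a-2 and 0.387 for Mir219a-1, the joint share was 3.87e-05% and 0 members were detected, because overlapping hairpins make these reads ambiguous. Over all reads of the tables, the means were 173, 34.2 and 17.1 CPM and the joint share 0.0224%, because the total is larger. Leaving out either replicate gave 0% to 0.0825% for the Mir3065 share of its locus, which rests on 1 read, and 1.39 to 2.88 for the ratio of Mir219a-2 to Mir219a-1. A mean of 2 libraries always lies within 1 SD of either, so leaving out a library says nothing about the stability of the levels. TMM scaling gave means of 585, 117 and 59.7 CPM. The log2 ratios kept their direction under DESeq2 size factors, library size alone, no filter on low counts and a prior count of 2. The number of detected members was 3 at 1 and at 5 CPM. Without strand, no ratio between the libraries and no ratio within the pairs could be computed. No paired analysis was possible because there is a single group. With 2 libraries, the depth limits Mir3065, Mir219b and Mir219c to the levels that 0 or 1 counts allow.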
